A study of Mus musculus with 70 samples.

Results

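The receptors of the activin, transforming growth factor beta (TGF-beta) and bone morphogenetic protein (BMP) ligands were followed across the dorsal hippocampus of adult male mice. The 10 genes were taken by symbol from the 24346 listed: the type I receptors Acvr1c, Acvr1b, Tgfbr1, Acvr1, Bmpr1a and Acvrl1, and the type II receptors Acvr2a, Acvr2b, Tgfbr2 and Bmpr2. Each of 7 groups had 10 libraries, 5 from each of 2 harvest cohorts collected on separate days. Exercise groups are named by their days of initial wheel running, sedentary delay and reactivating running: 14-0-0, 0-0-2, 14-14-0, 14-7-2 and 14-7-0. Sedentary mice (0-0-0) did not run, and these 6 groups were given a 3-min subthreshold session of object location memory (OLM) training, 1 h after which tissue was collected. Home cage mice neither ran nor were trained. All were individually housed C57BL/6J mice, each library is 1 mouse, and wheels were taken away the night before training. Whole tissue was sequenced, so fewer cells of a type and less RNA per cell cannot be told apart.

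Ligands of this family bring together type II receptors, which are constitutively active kinases, and type I receptors, which the type II kinases phosphorylate. Acvr1c (ALK7), Acvr1b (ALK4) and Tgfbr1 (ALK5) then activate the SMAD2 and SMAD3 branch used by activins and TGF-beta, whereas Acvr1 (ALK2), Bmpr1a (ALK3) and Acvrl1 (ALK1) activate the SMAD1, SMAD5 and SMAD9 branch used by BMPs. In brain, activin signalling is known for its part in synaptic plasticity, TGF-beta receptors are prominent in cells of vessels and meninges, and Acvrl1 is an endothelial receptor. Acvr1c is the gene that the study singled out from these same libraries, so its difference from sedentary is not independent evidence of its direction. The study sought genes raised against sedentary only in the exercise groups in which memory formed. The differences of Acvr1c from the other exercise groups, and its test over all groups, are therefore not independent evidence either.

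Values are FPKM, fragments per kilobase of transcript scaled to the mapped fragments of a library, and so are comparable between genes per length. The read totals behind them were not used here, because the labels do not tie them to the libraries. FPKM summed to 382574 to 469206 per library, and the number of genes listed at 0 ran from 6243 to 7199 except in replicate 4 of 14-7-0, which had 10279 and an estimated depth of 0.0359 relative to sedentary replicate 0 (0.342 to 1.46 in the other libraries). Sedentary replicate 6 stood apart in another way. Its score for dentate gyrus granule cell markers (Prox1, Dsp, C1ql2, Lct and Trpc6) was -4.41 on the log2 scale, against a sedentary median of 0.13. It also had the lowest CA3 pyramidal score of the sedentary libraries (-1.61, median 0.14). Its ependymal (2.62, median 0.16) and thalamus (1.60, median -0.09) scores were the highest of that group. Values without this library or 14-7-0 replicate 4 are given below for some results only, and all other values include both.

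Coordinates are those of GENCODE M21 on GRCm38, the assembly that the submitters' processing notes name as mm10. All 10 are protein-coding genes. Acvr1c lies on the minus strand at chr2:58267453-58357895, 30748 bases from Acvr1 on the same strand at chr2:58388644-58567157. Acvr2a is on the same chromosome at chr2:48814109-48903269. Acvrl1 at chr15:101128522-101145336 and Acvr1b at chr15:101174067-101213684 are also neighbours, 28730 bases apart. Tgfbr2 is at chr9:116084293-116175360 and Acvr2b at chr9:119402118-119434995. Tgfbr1 is at chr4:47353222-47414931, Bmpr1a at chr14:34410734-34503341 and Bmpr2 at chr1:59763400-59879014.

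The starts of Acvr1c and Tgfbr2, the members whose levels varied most clearly between groups, differ in their letters. RefSeq windows of 300 bases around 11 starts (GRCm38.p6) were matched for 9 of the 10 members. Printed below, 5′ to 3′ on the gene's strand, are the bases of those windows that lie upstream of both the RefSeq start and the GENCODE gene: chr2:58357896-58358008 (minus strand) for Acvr1c and chr9:116175364-116175613 (minus strand) for Tgfbr2. Capitals mark the GC box, GGGCGG or CCGCCC on the other strand.
Acvr1c: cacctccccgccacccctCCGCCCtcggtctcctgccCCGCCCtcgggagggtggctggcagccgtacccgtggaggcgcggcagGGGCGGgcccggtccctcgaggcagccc
Tgfbr2: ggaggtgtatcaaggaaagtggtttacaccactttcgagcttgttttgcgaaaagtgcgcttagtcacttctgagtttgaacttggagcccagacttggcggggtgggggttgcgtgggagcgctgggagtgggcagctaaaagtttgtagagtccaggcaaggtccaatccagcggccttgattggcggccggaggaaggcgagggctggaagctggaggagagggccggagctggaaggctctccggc
The Acvr1c stretch held 3 GC boxes and was 80.5% G and C. The Tgfbr2 stretch held none and was 58.4% G and C. Of the 11 windows of these members, 8 held a GC box, against 35.7% of 32851 windows genome-wide. The palindrome GTCTAGAC that SMAD proteins can bind was found in none of the 11 windows and in 0.213% of all. Of 2 other SMAD elements searched, GGCGCC was in 4 of the 11 (Acvr1b, Bmpr1a, Bmpr2 and Tgfbr1) and in 11.9% of all. The CAGA box, CAGACA or TGTCTG on the other strand, was in 1 of the 11 (Tgfbr1) and in 21.0% of all. A match is a description of letters only.

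The SMAD2/3 receptor Acvr1b had the highest level of the family, with a mean of 33.8 FPKM over 70 libraries (SD 3.904). It was followed by the BMP type II receptor Bmpr2 at 25.0 FPKM (SD 3.76), Acvr1 at 18.7 FPKM (SD 2.05), Bmpr1a at 15.8 FPKM (SD 1.83) and the activin type II receptor Acvr2a at 10.6 FPKM (SD 1.69). Lower levels were found for Tgfbr1 at 7.38 FPKM (SD 1.10), Tgfbr2 at 5.22 FPKM (SD 0.954), Acvr1c at 4.10 FPKM (SD 1.01) and Acvrl1 at 3.18 FPKM (SD 0.495). Acvr2b had the lowest level, 0.897 FPKM (SD 0.375), and was at 0 in the shallow library of 14-7-0. The order was steady library by library at its top and bottom: Acvr1b exceeded Bmpr2 in 70 of 70 libraries and Acvrl1 exceeded Acvr2b in 70 of 70. The closest neighbours were Tgfbr2 and Acvr1c (57 of 70), Acvr1c and Acvrl1 (58 of 70) and Acvr1 and Bmpr1a (64 of 70), whose ranges overlapped. Acvr1c had the largest coefficient of variation among the 9 receptors above 1 FPKM, 24.5%, against 10.96% to 18.3% for the other 8.

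**Figure D1:**
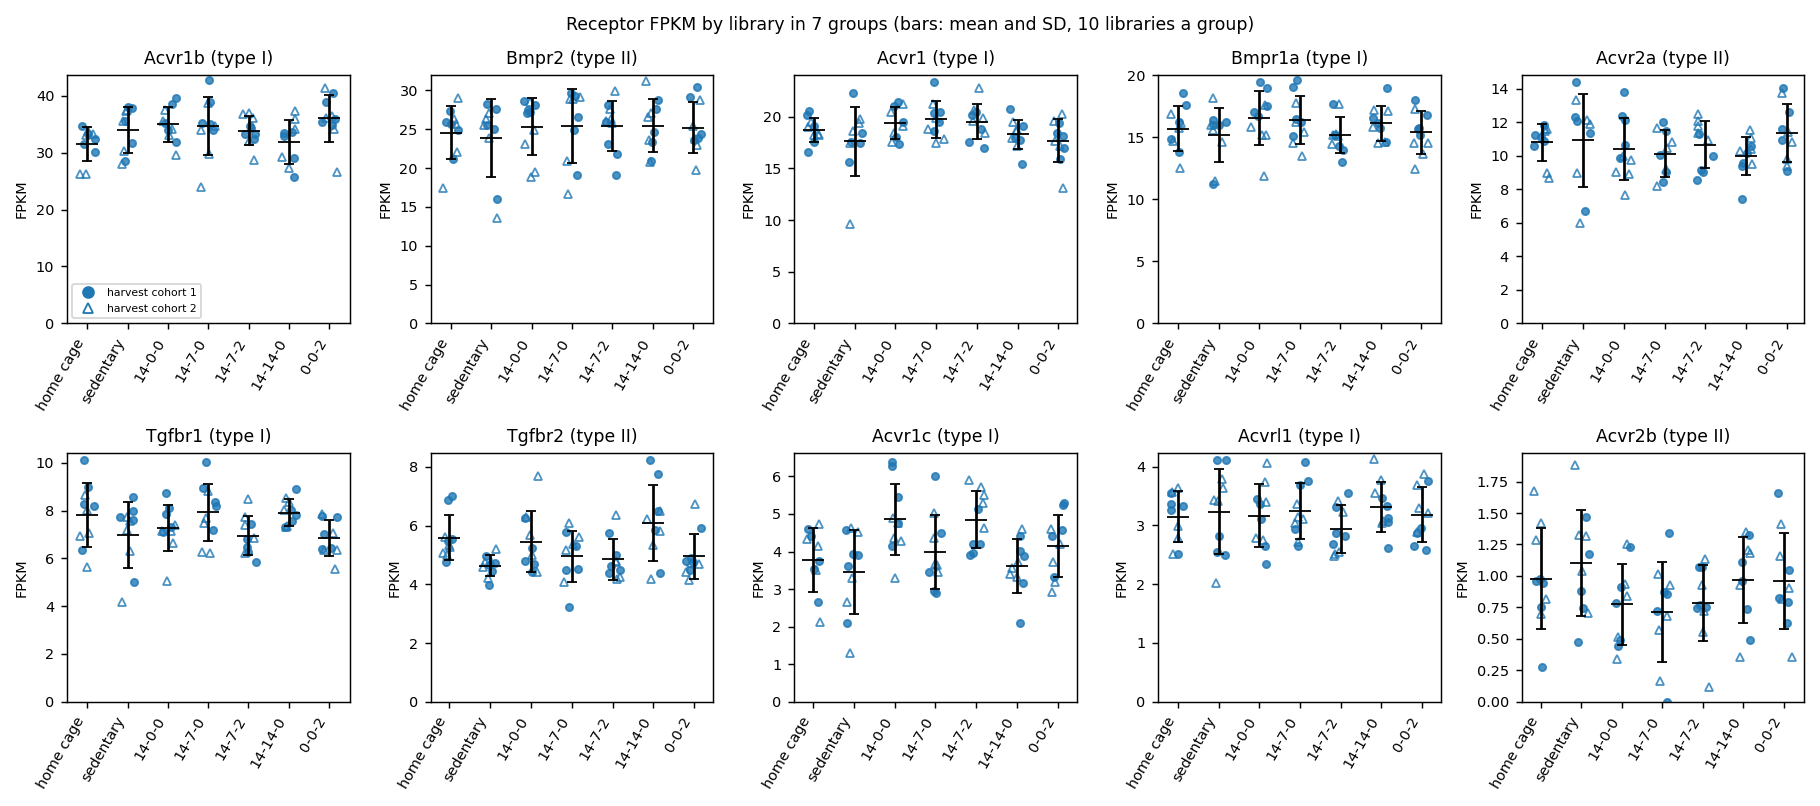
FPKM of each receptor (y axes, from 0) in the 10 libraries of each of 7 groups (x axes), with circles for harvest cohort 1, triangles for cohort 2, and bars for the mean and SD. Acvr1c is highest in 14-0-0 and 14-7-2 with mean levels of 4.86 and 4.84 FPKM, and Tgfbr2 in 14-14-0 with 6.08 FPKM, and in every panel the groups overlap.

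Summed FPKM of the 6 type I receptors averaged 83.0 (SD 7.05) and those of the 4 type II receptors 41.7 (SD 5.14), a ratio of 2.01 (SD 0.194, range 1.70 to 2.95). The highest ratio was in 14-7-0, the group that holds the shallow library. Acvr1c made up a small share of the summed FPKM of the 3 SMAD2/3 type I receptors. That share was 7.57% (SD 1.73) in sedentary, 8.28% (SD 1.15) in 14-14-0, 8.58% (SD 1.59) in 14-7-0, 8.69% (SD 1.35) in home cage and 8.85% (SD 1.73) in 0-0-2. It was 10.3% (SD 1.44) in 14-0-0 and 10.6% (SD 1.57) in 14-7-2, so that Acvr1b remained the bulk of this branch in every group.

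Each group was first compared with sedentary. For the exercise groups this asks what a running schedule adds to a training session that is too short by itself. Home cage against sedentary compares untrained with trained mice, neither of which ran. In fits of each pair of groups, 2 receptors were called at an unadjusted p under 0.05, Acvr1c and Tgfbr2, each in some groups and always upward. A joint fit of all 7 groups also called Acvr1 in 14-0-0 (log2 fold change 0.16, unadjusted limma p = 0.034), 14-7-0 (0.19, unadjusted p = 0.0158) and 14-7-2 (0.17, unadjusted p = 0.0265), Tgfbr1 in 14-7-0 (0.20, unadjusted p = 0.0431) and 14-14-0 (0.21, unadjusted p = 0.033), and Acvr1c in 0-0-2 (0.32, unadjusted p = 0.0438), all higher than in sedentary. The joint fit was not repeated without sedentary replicate 6, which held the lowest Acvr1, Tgfbr1 and Acvr1c of all 70 libraries. The share of all genes that it called is not given here. In the fits of each pair, 2 of 9 receptors tested were called in 14-0-0, against 9.15% of 12994 genes. The count was 1 of 9 in 14-7-2 (4.39% of genes), 1 of 9 in 14-14-0 (4.95%) and 1 of 9 in home cage (2.3%). It was 0 of 9 in 14-7-0 (3.26%) and 0 of 9 in 0-0-2 (2.37%). No receptor passed Benjamini-Hochberg adjustment of the limma test over all genes in any of these comparisons, and neither did any other gene. The smallest adjusted p of a receptor was 0.366, in 14-0-0. The median log2 fold change of the 9 receptors lay between 0.02 in 14-7-2 and 0.11 in 14-0-0, beside medians between -0.01 and 0.01 for all genes.

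Acvr1c in sedentary libraries ran from 1.30 to 4.64 FPKM with a median of 3.76. In 14-0-0 it ran from 3.30 to 6.37 FPKM with a median of 4.76, and in 14-7-2 from 3.91 to 5.90 FPKM with a median of 4.88. Both exercise groups overlapped sedentary, and 9 of 10 libraries of 14-0-0 and 10 of 10 of 14-7-2 were above the sedentary median. The log2 fold change was 0.54 (SE 0.19, unadjusted limma p = 0.00988, adjusted p = 0.366) in 14-0-0 and 0.55 (SE 0.18, unadjusted p = 0.00735, adjusted p = 0.847) in 14-7-2. The lowest value, 1.30 FPKM, was that of sedentary replicate 6, and without it the log2 fold changes were 0.40 (SE 0.15, unadjusted p = 0.0117) and 0.41 (SE 0.14, unadjusted p = 0.00687). With the dentate gyrus score as a covariate, an alternative chosen after seeing the data, they were 0.34 (unadjusted p = 0.00812) and 0.36 (unadjusted p = 0.00218). By harvest cohort, 14-0-0 gave 0.59 in cohort 1 and 0.50 in cohort 2, and 14-7-2 gave 0.27 and 0.83. Sedentary replicate 6 is 1 of the 5 sedentary libraries of cohort 2, so both cohort 2 values include its low level. Cohort values without it are not given here. In the groups with no call, the log2 fold change of Acvr1c was 0.26 (SE 0.20) in 14-7-0, 0.32 (SE 0.19) in 0-0-2, 0.12 (SE 0.20) in 14-14-0 and 0.18 (SE 0.20) in home cage.

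Tgfbr2, the type II receptor for TGF-beta, was narrow in sedentary libraries, from 3.98 to 5.20 FPKM with a median of 4.70. It ran from 4.18 to 8.23 FPKM in 14-14-0 (median 6.04), from 4.42 to 7.67 FPKM in 14-0-0 (median 5.13) and from 4.77 to 6.99 FPKM in home cage (median 5.40). The lower ends of these groups lay within the sedentary range and the upper ends well above it. The log2 fold change against sedentary was 0.36 (SE 0.10, unadjusted limma p = 0.00209) in 14-14-0, 0.26 (SE 0.07, unadjusted p = 0.00151) in home cage and 0.21 (SE 0.09, unadjusted p = 0.0261) in 14-0-0. The adjusted p was 0.974, 1 and 0.458 respectively. Within cohorts 1 and 2 the values were 0.48 and 0.24 in 14-14-0, 0.36 and 0.16 in home cage, and 0.15 and 0.28 in 14-0-0. Tgfbr2 in 14-0-0 was the least firm of these: without replicate 0, 7 or 9 of that group the unadjusted p was 0.0504, 0.0506 or 0.0511.

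Markers of tissue around the hippocampus were called higher in the same 3 groups as Tgfbr2. Of 6 meningeal fibroblast markers (Dcn, Lum, Col1a1, Col1a2, Slc6a13 and Igf2), 5 were called higher in 14-14-0 than in sedentary, 4 in 14-0-0, 4 in home cage and 0 in each of 14-7-0, 14-7-2 and 0-0-2. Their summed level was 15.9 to 50.4 FPKM in sedentary, 17.8 to 238 FPKM in 14-14-0, 21.1 to 199 FPKM in 14-0-0 and 24.4 to 180 FPKM in home cage. It was 18.2 to 53.0 FPKM in 14-7-0, 16.2 to 77.1 FPKM in 14-7-2 and 19.6 to 158 FPKM in 0-0-2, where replicate 8 had the highest meningeal fibroblast score of the 70 libraries. None of the 6 was listed at 0 in any library. Of 6 choroid plexus epithelium markers (Ttr, Folr1, Kl, Clic6, Kcnj13 and F5), 6, 6 and 4 were called higher in 14-14-0, 14-0-0 and home cage, and 0 in the other 3 groups. Folr1 and Kcnj13 were each listed at 0 in 1 library. The summed choroid plexus level was 22.7 to 366 FPKM in sedentary (median 84.6), with medians of 2105 FPKM in 14-14-0, 2283 FPKM in 14-0-0, 125 FPKM in home cage, 113 FPKM in 0-0-2, 89.8 FPKM in 14-7-2 and 82.3 FPKM in 14-7-0. The highest library reached 21760 FPKM in 14-14-0, 16030 FPKM in 14-0-0 and 15520 FPKM in home cage. It reached 10980 FPKM in 0-0-2, 2348 FPKM in 14-7-2 and 2131 FPKM in 14-7-0. When the choroid plexus score entered the model, the log2 fold change of Tgfbr2 was 0.13 (unadjusted limma p = 0.116) in 14-14-0, 0.06 (unadjusted p = 0.553) in 14-0-0 and 0.17 (unadjusted p = 0.0227) in home cage. With the meningeal fibroblast score, an alternative added after seeing the data, it was 0.12 (unadjusted p = 0.162), 0.05 (unadjusted p = 0.599) and 0.12 (unadjusted p = 0.0796). The same covariate left Acvr1c at 0.48 (unadjusted p = 0.0542) in 14-0-0 and 0.51 (unadjusted p = 0.0122) in 14-7-2.

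**Figure D2:**
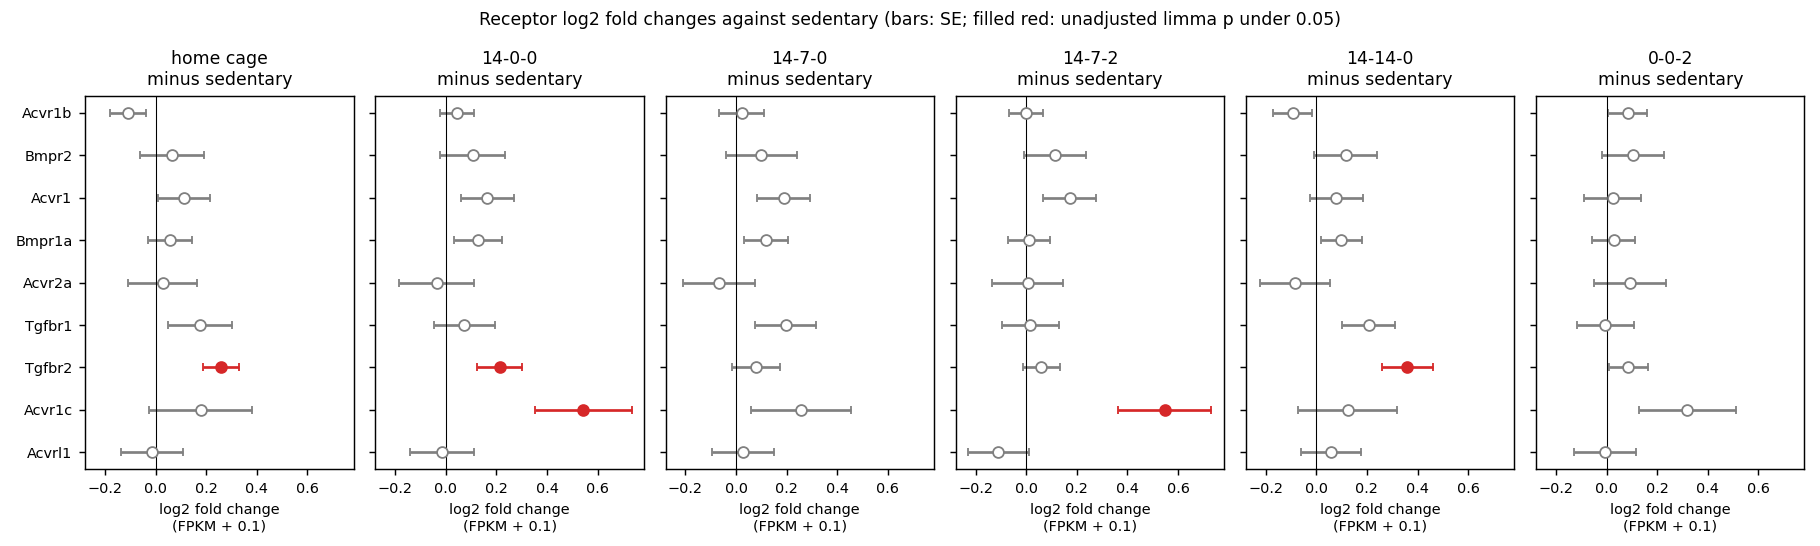
Log2 fold change of FPKM + 0.1 (x axes) of the 9 tested receptors (rows) in each of 6 groups against sedentary, with bars for the SE and red points for an unadjusted limma p under 0.05. The red points are Tgfbr2 in home cage (0.26), 14-0-0 (0.21) and 14-14-0 (0.36) and Acvr1c in 14-0-0 (0.54) and 14-7-2 (0.55).

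The more abundant receptors were called against sedentary in no group by the fits of each pair. The joint fit given above called Acvr1 in 14-0-0, 14-7-0 and 14-7-2. Group means of Acvr1 ran from 17.6 FPKM (SD 3.31) in sedentary to 19.7 FPKM (SD 1.76) in 14-7-0. Group means of Bmpr2 ran from 23.9 FPKM (SD 5.001) in sedentary to 25.4 FPKM (SD 3.40) in 14-14-0, and those of Bmpr1a from 15.2 FPKM (SD 2.19) in sedentary to 16.5 FPKM (SD 2.17) in 14-0-0. Acvr1b was lowest in home cage, 31.5 FPKM (SD 3.00), and highest in 0-0-2, 36.0 FPKM (SD 4.11), whereas Acvr2a was lowest in 14-14-0, 9.98 FPKM (SD 1.12), and highest in 0-0-2, 11.3 FPKM (SD 1.71). The endothelial receptor Acvrl1 varied by 1.13 times between its lowest and highest group means. Sedentary replicate 6 held the lowest value of all 70 libraries for Bmpr2 (13.5 FPKM), Acvr1 (9.65 FPKM), Acvr2a (5.97 FPKM), Tgfbr1 (4.16 FPKM) and Acvr1c, and the highest for Acvr2b (1.88 FPKM). The sedentary means of Acvr1, Bmpr2 and Bmpr1a given here include that library.

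Acvr2b failed the minimum mean of 1 FPKM and was tested only with a minimum of 0.1. Its mean was highest in sedentary, 1.10 FPKM (SD 0.418), and lowest in 14-7-0, 0.713 FPKM (SD 0.395). The log2 fold change against sedentary was -0.77 (SE 0.38, unadjusted limma p = 0.058) in 14-7-0, -0.48 (SE 0.27, unadjusted p = 0.0913) in 14-7-2 and -0.47 (SE 0.23, unadjusted p = 0.0587) in 14-0-0, and between -0.19 and -0.18 in the other 3 groups. None of these passed the threshold. In alternatives added after seeing the data, the value in 14-7-0 was -0.46 (SE 0.27) without its replicate 4, where Acvr2b is listed at 0, -0.68 (SE 0.39) without sedentary replicate 6, which has the highest Acvr2b, and -0.37 (SE 0.26) without both. Without sedentary replicate 6 it was -0.38 (SE 0.23) in 14-0-0 and -0.39 (SE 0.27) in 14-7-2. With that minimum the share of genes called was 3.06% in home cage, 9.74% in 14-0-0, 3.48% in 14-7-0, 4.64% in 14-7-2, 6.14% in 14-14-0 and 2.72% in 0-0-2.

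The exercise groups were then compared directly, which asks how 14-0-0 and 14-7-2 differ from schedules with a delay or a short run alone. The study took Acvr1c from genes raised only in 14-0-0 and 14-7-2, so its values here are not independent of that choice. Acvr1c ran from 2.88 to 6.02 FPKM in 14-7-0 (median 3.65), from 2.08 to 4.59 FPKM in 14-14-0 (median 3.64) and from 2.93 to 5.30 FPKM in 0-0-2 (median 4.31), all overlapping 14-0-0 and 14-7-2. Its log2 difference was 0.42 in 14-0-0 from 14-14-0 (SE 0.13, unadjusted limma p = 0.00363, adjusted p = 0.451), the only receptor of 9 called there (7.16% of genes), and 0.29 from 14-7-0 (SE 0.13, unadjusted p = 0.0433, adjusted p = 0.868), again 1 of 9 (5.63% of genes). In 14-7-2 it was 0.42 from 14-14-0 (SE 0.12, unadjusted p = 0.00169, adjusted p = 0.233) and 0.29 from 14-7-0 (SE 0.12, unadjusted p = 0.028, adjusted p = 0.859). Every library of 14-7-2 was above the median of 14-14-0 and of 14-7-0. Without the shallow replicate 4 of 14-7-0, the differences from that group were 0.24 for both (unadjusted p = 0.0823 for 14-0-0 and 0.0551 for 14-7-2). The call of 14-0-0 against 14-7-0 was lost without any 1 of 12 libraries (replicates 0, 1, 2, 4, 7 and 8 of 14-0-0 and 2, 3, 4, 6, 7 and 9 of 14-7-0; largest unadjusted p = 0.0851), and that of 14-7-2 against 14-7-0 without any 1 of 4 (replicates 3 and 4 of 14-7-0 and 8 and 9 of 14-7-2; largest unadjusted p = 0.0569). In 14-0-0 against 14-7-0, 6 of 6 choroid plexus and 1 of 6 meningeal fibroblast markers were called higher, and the log2 difference of Acvr1c was 0.31 (unadjusted p = 0.0684) with the choroid plexus covariate and 0.21 (unadjusted p = 0.155) with the meningeal one. In 14-7-2 against 14-7-0, with 0 of 6 of either list called, these were 0.26 (unadjusted p = 0.0481) and 0.29 (unadjusted p = 0.0174). Markers of other cells did differ there, with 3 of 4 CA3 pyramidal markers called higher in 14-7-2. Called lower were 3 of 6 inhibitory neuron, 3 of 6 mural, 2 of 6 endothelial and 2 of 6 microglia markers. So were 1 of 6 astrocyte and 1 of 4 oligodendrocyte precursor markers. The part of all these cells in the difference of Acvr1c was not tested. CA3 pyramidal scores of 14-7-0 replicates 0 and 3 were -1.95 and -1.90, the lowest of the 70 libraries. The median of that group was 0.002. By cohort, the difference of 14-7-2 from 14-14-0 was 0.31 and 0.53, and that of 14-0-0 was 0.63 and 0.21. Against 0-0-2, the difference of Acvr1c was 0.22 (SE 0.12, unadjusted p = 0.0859) for 14-0-0 and 0.23 (SE 0.11, unadjusted p = 0.057) for 14-7-2, and neither passed.

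In all, 3 of 9 receptors were called in 14-7-2 against 14-14-0, where 11.1% of genes were: Acvr1c upward, and both TGF-beta receptors downward. Tgfbr1 ran from 5.86 to 8.47 FPKM in 14-7-2 (median 6.84) and from 7.30 to 8.89 FPKM in 14-14-0 (median 7.91), with 1 of 10 libraries of 14-7-2 above the median of 14-14-0. Tgfbr1 was lower in 14-7-2 by a log2 difference of -0.19 (SE 0.06, unadjusted limma p = 0.00575, adjusted p = 0.297). Tgfbr2 was lower by -0.30 (SE 0.11, unadjusted p = 0.0137, adjusted p = 0.352), and with the meningeal fibroblast score as a covariate by -0.07 (unadjusted p = 0.322). For Tgfbr1 that covariate left -0.15 (unadjusted p = 0.0425) and for Acvr1c 0.41 (unadjusted p = 0.00723). In this comparison 4 of 6 mural, 3 of 6 meningeal fibroblast, 3 of 4 ependymal, 2 of 6 endothelial and 1 of 6 choroid plexus markers were called lower and 3 of 4 CA3 pyramidal markers higher in 14-7-2, and their part in these differences was otherwise not tested. Against 14-7-0, 2 of 9 receptors were called in 14-7-2 (5.39% of genes), Acvr1c and Tgfbr1 at -0.18 (SE 0.09, unadjusted p = 0.0493). That difference of Tgfbr1 was -0.37 in cohort 1 and 0.01 in cohort 2, and it lost its call without any 1 of 13 libraries (largest unadjusted p = 0.102, without 14-7-0 replicate 0). The BMP receptor Acvr1 was the only one called in 14-7-2 against 0-0-2 (2.43% of genes), at 0.15 (SE 0.07, unadjusted p = 0.0418). It ran from 17.0 to 22.8 FPKM in 14-7-2 (median 19.8) and from 13.1 to 20.3 FPKM in 0-0-2 (median 17.9), and the call was lost without any 1 of 11 libraries (largest unadjusted p = 0.0806, without 14-7-2 replicate 9). No receptor was called in 14-0-0 against 0-0-2 (1.56% of genes).

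Over all 7 groups, with harvest cohort in the limma model, 2 of 9 receptors had an unadjusted p under 0.05, beside 7.89% of all genes: Acvr1c (unadjusted p = 0.00453, adjusted p = 0.349) and Tgfbr2 (unadjusted p = 0.00714, adjusted p = 0.41). The result for Acvr1c is not independent of its choice by the study from these libraries. No receptor was among the 31 genes that passed adjustment. Between the harvest cohorts, 2 of 9 receptors differed, beside 11.9% of genes. Tgfbr1 was 7.67 FPKM (SD 1.10) in cohort 1 and 7.10 FPKM (SD 1.03) in cohort 2 (log2 difference of cohort 2 from cohort 1 -0.11, unadjusted p = 0.0279), and Bmpr1a was 16.3 FPKM (SD 1.87) and 15.3 FPKM (SD 1.66) (-0.09, unadjusted p = 0.0218). The smallest adjusted p of the 2 was 0.307. Of 54 tests of whether a receptor's difference from sedentary itself differed between cohorts, 0 had an unadjusted limma p under 0.05. The share of all genes that did was 0.423% in home cage, 2.79% in 14-0-0, 0.362% in 14-7-0, 2.42% in 14-7-2, 2.03% in 14-14-0 and 1.48% in 0-0-2.

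Of 68 other genes of the pathway, 49 reached the minimum level. Against sedentary, 8 were called in 14-0-0 (5 higher, 3 lower), 16.3% of the list beside 9.15% of all genes. In 14-14-0, 5 were called (all higher), 10.2% of the list beside 4.95%. In home cage 4 were (3 higher, 1 lower), 8.16% beside 2.3%. In 14-7-2, 3 were (1 higher, 2 lower), 6.12% beside 4.39%. In 14-7-0, 2 were (1 each way), 4.08% beside 3.26%, and in 0-0-2, 0 were, beside 2.37%. None passed adjustment. Among ligands, Inhbb, which encodes the beta B subunit of activin B, was lower in 14-0-0 (log2 fold change -0.52, SE 0.12, unadjusted limma p = 0.000413, adjusted p = 0.279), 14-7-0 (-0.63, SE 0.21, unadjusted p = 0.0065) and 14-7-2 (-0.49, SE 0.17, unadjusted p = 0.00931). Its mean was 1.76 FPKM (SD 0.425) in sedentary and 1.18 FPKM (SD 0.167), 1.15 FPKM (SD 0.393) and 1.25 FPKM (SD 0.391) in those groups. Bambi, a pseudoreceptor that lacks the kinase domain, was higher in 14-0-0 (0.42, SE 0.12, unadjusted p = 0.00276) and 14-7-2 (0.38, SE 0.16, unadjusted p = 0.0227), the groups in which Acvr1c was called.

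Sostdc1, Bmp6 and Tgfbr3 were called higher in groups in which choroid plexus markers were too. Sostdc1, a secreted BMP antagonist, averaged 2.42 FPKM (SD 0.668) in sedentary, 15.1 FPKM (SD 16.2) in 14-0-0 and 19.97 FPKM (SD 23.4) in 14-14-0. The ligand gene Bmp6 averaged 2.08 FPKM (SD 0.678) in sedentary, 3.38 FPKM (SD 2.13) in home cage and 4.94 FPKM (SD 4.02) in 14-14-0, and the co-receptor Tgfbr3 (betaglycan) averaged 2.96 FPKM (SD 0.568), 3.80 FPKM (SD 1.10) and 4.96 FPKM (SD 2.28). Their log2 fold changes from sedentary were 1.84 (SE 0.51) for Sostdc1 in 14-0-0 and 1.85 (SE 0.64) in 14-14-0, 0.57 (SE 0.24) for Bmp6 in home cage and 0.91 (SE 0.34) in 14-14-0, and 0.33 (SE 0.15) for Tgfbr3 in home cage and 0.65 (SE 0.19) in 14-14-0. The SDs there exceeded those in sedentary. The part of those cells in these values was not tested. None of the 6 target genes that reached the minimum level was called in any group, and of 12 intracellular mediators only Smurf1 in home cage (-0.14, SE 0.05) and 2 genes in 14-0-0 were.

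The receptors were next compared with each other across the 70 libraries, by Pearson r and Spearman rho of log2(FPKM + 0.1), each with a two-sided permutation test and adjustment over the 45 pairs. In all, 18 pairs passed at an adjusted p under 0.05 by both measures, 16 positive and 2 negative. The closest pair was Tgfbr1 and Bmpr1a, with r = 0.82 and rho = 0.76 (permutation p = 1e-05 for both, the smallest that the permutations can give; adjusted p = 4.5e-05 and 7.5e-05). It held without the 2 libraries farthest from the median of Bmpr1a (r = 0.77) and within cohort 1 (rho = 0.65) and cohort 2 (rho = 0.79). Acvr1c was closest to Bmpr2 (r = 0.70, rho = 0.56, permutation p = 1e-05 for both) and to its neighbour Acvr1 (r = 0.63, rho = 0.53, permutation p = 1e-05 for both), and without sedentary replicate 6 these rho were 0.54 and 0.51. The r with Bmpr2 was 0.57 without the 2 libraries farthest from the median of Bmpr2. The r with Acvr1 was 0.46 without the 2 farthest from the median of Acvr1. The rho in cohorts 1 and 2 were 0.55 and 0.56 for Bmpr2 and 0.47 and 0.61 for Acvr1. Acvr1b and Tgfbr2 went opposite ways (r = -0.33, rho = -0.34, permutation p = 0.00496 and 0.00404, adjusted p = 0.0106 and 0.0107), with r = -0.24 without the 2 farthest libraries and rho of -0.19 and -0.43 in cohorts 1 and 2.

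Base composition ran along with these correlations. The longest coding transcripts of Acvr1c, Acvr2a, Bmpr2, Tgfbr1 and Bmpr1a were 39.9% to 41.3% G and C, all under the 9th percentile of the tested genes, and all 10 pairs among these 5 passed, with rho from 0.34 to 0.76. The other 5 receptors were 48.7% to 56.6% G and C, and of the 35 pairs that include at least 1 of them 8 passed, 6 of these positive, with a median rho of 0.10. The split was made after the correlations were seen, and the part of base composition in them was not tested. The points also share a library preparation method, and their depth varies as given above.

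**Figure D3:**
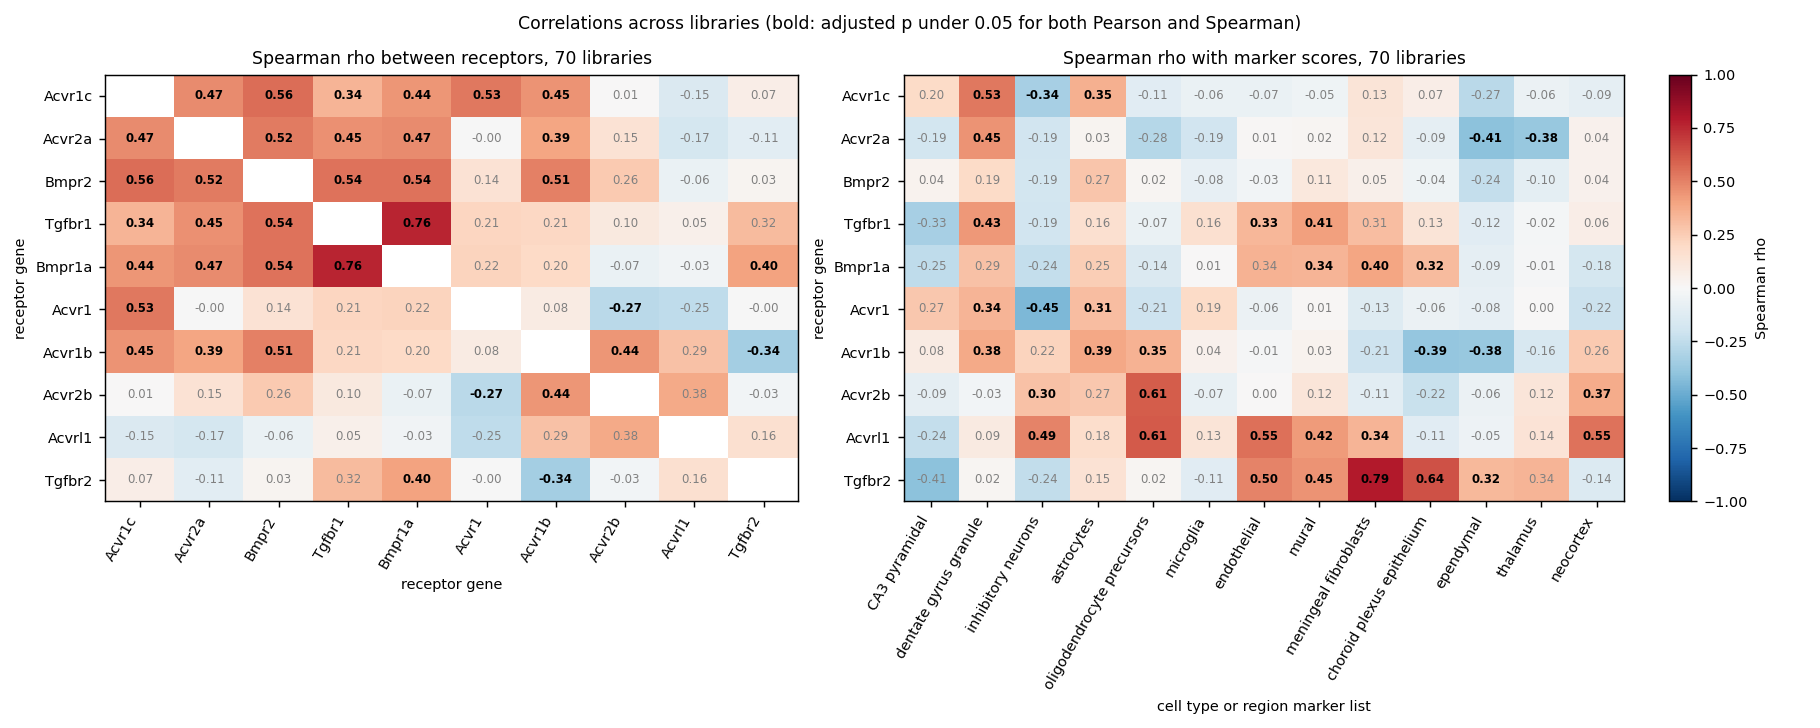
Spearman rho over 70 libraries between receptors (left) and between receptors and the scores of marker lists (right), with numbers in bold where both Pearson and Spearman pass adjustment. The block of Acvr1c, Acvr2a, Bmpr2, Tgfbr1 and Bmpr1a is positive throughout, and Tgfbr2 stands out on the right with rho of 0.79 for meningeal fibroblasts and 0.64 for choroid plexus epithelium.

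Receptors were last compared with cell type and region markers. To score a list in a library, log2(FPKM + 0.1) of each gene was centred on that gene's mean over the 70 libraries and the centred values were averaged. Of 150 relations between 10 receptors and 15 lists, 38 passed by both measures after adjustment over all 150, 30 positive and 8 negative. Tgfbr2 rose with the meningeal fibroblast score (r = 0.78, rho = 0.79, permutation p = 1e-05 for both), in cohort 1 (rho = 0.84) and in cohort 2 (rho = 0.73), and r was 0.81 without the 2 farthest libraries. It also rose with the choroid plexus score (r = 0.74, rho = 0.64) and the endothelial score (r = 0.44, rho = 0.50), for which no permutation p was above 0.00023. Their rho in cohorts 1 and 2 were 0.56 and 0.70 for choroid plexus and 0.55 and 0.36 for endothelium, and r was 0.69 and 0.45 without the 2 farthest libraries.

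Acvrl1 rose with the endothelial score (Cldn5, Pecam1, Flt1, Tek, Slco1a4 and Ly6c1; r = 0.53, rho = 0.55, permutation p = 2e-05 and 1e-05, rho of 0.67 and 0.52 in cohorts 1 and 2, r = 0.56 without the 2 farthest libraries). It also rose with the oligodendrocyte precursor score (r = 0.56, rho = 0.61, rho of 0.51 and 0.66 in cohorts 1 and 2, r = 0.54 without the 2 farthest) and the neocortex score (r = 0.51, rho = 0.55, rho of 0.65 and 0.39, r = 0.59). Acvr2b followed the oligodendrocyte precursor score (Pdgfra, Cspg4, C1ql1 and Gpr17; r = 0.50, rho = 0.61, permutation p = 3e-05 and 1e-05), with r of 0.16 in cohort 1 and 0.77 in cohort 2, and r = 0.38 without the 2 farthest libraries.

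Acvr1c rose with the dentate gyrus score (r = 0.64, rho = 0.53, permutation p = 1e-05 for both), with rho of 0.46 and 0.56 in cohorts 1 and 2, and r was 0.55 without the 2 farthest libraries and 0.48 without sedentary replicate 6. For Acvr1 the same score gave r = 0.71 but rho = 0.34 (0.37 and 0.29 in cohorts 1 and 2), and r was 0.44 without sedentary replicate 6. No receptor passed with the microglia list.

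Of the 38 relations that passed, 8 were negative. Acvr1 fell with the inhibitory neuron score (Gad1, Gad2, Slc32a1, Sst, Pvalb and Vip; r = -0.50, rho = -0.45, permutation p = 1e-05 and 8e-05), with rho of -0.14 in cohort 1 and -0.71 in cohort 2 and r = -0.51 without the 2 farthest libraries. Acvr1c also fell with it (r = -0.39, rho = -0.34, permutation p = 0.00086 and 0.0048, adjusted p = 0.00516 and 0.0202), with rho of -0.19 and -0.51 in cohorts 1 and 2 and r = -0.42 without the 2 farthest libraries. Acvr1b fell with the choroid plexus score (r = -0.41, rho = -0.39, permutation p = 0.00044 and 0.0009, rho of -0.38 and -0.36 in cohorts 1 and 2, r = -0.44 without the 2 farthest libraries). It also fell with the ependymal score (Foxj1, Ccdc153, Tmem212 and Dynlrb2; r = -0.42, rho = -0.38, rho of -0.35 and -0.38 in cohorts 1 and 2, r = -0.39 without the 2 farthest). Acvr2a fell with the ependymal score (r = -0.50, rho = -0.41, permutation p = 3e-05 and 0.00054, rho of -0.37 and -0.41, r = -0.36 without the 2 farthest) and with the thalamus score (Tcf7l2, Prkcd, Zic1 and Lhx9; r = -0.49, rho = -0.38, permutation p = 4e-05 and 0.00141, rho of -0.43 and -0.32, r = -0.36 without the 2 farthest). Among the positive relations, Acvrl1 rose with the inhibitory neuron score (r = 0.49, rho = 0.49, permutation p = 2e-05 and 4e-05, rho of 0.36 and 0.64, r = 0.50 without the 2 farthest), and the astrocyte score (Gfap, Aqp4, Aldh1l1, Slc1a2, Slc1a3 and Gja1) rose with Acvr1b (r = 0.42, rho = 0.39, rho of 0.45 and 0.32, r = 0.41) and Acvr1c (r = 0.38, rho = 0.35, rho of 0.47 and 0.20, r = 0.35).

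**Figure D4:**
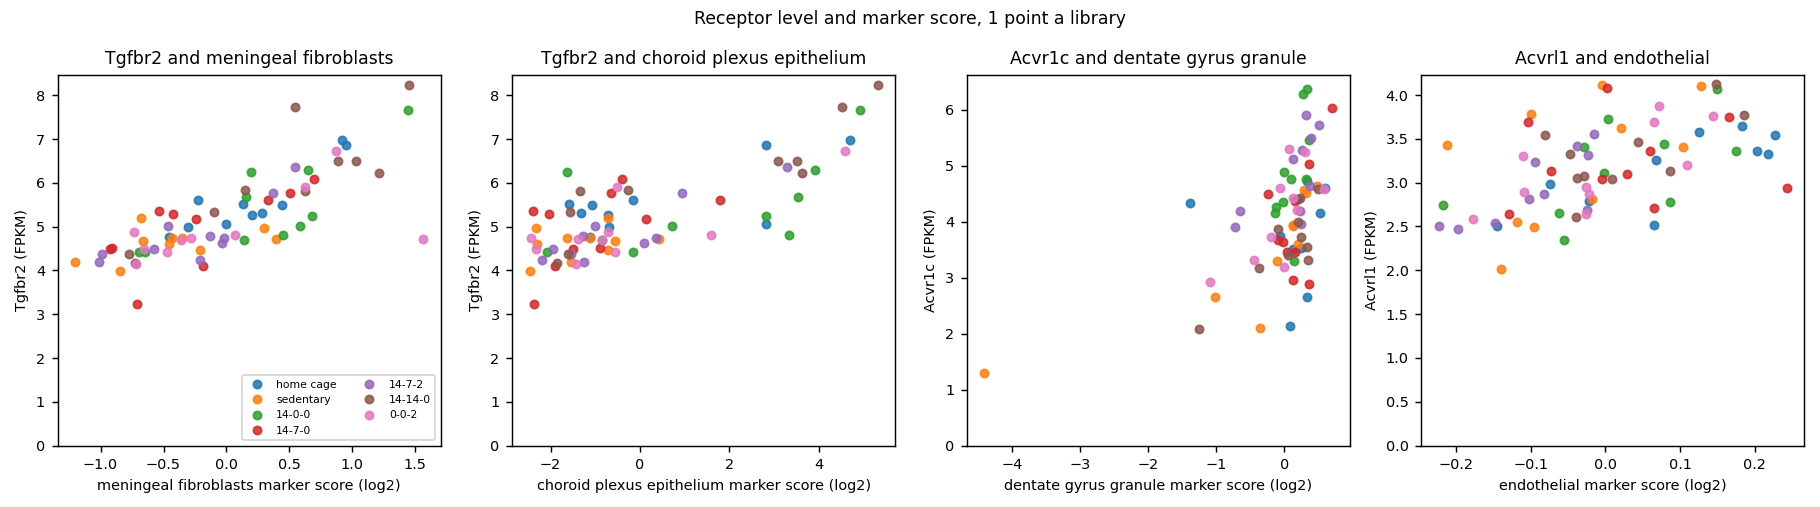
FPKM of Tgfbr2, Acvr1c and Acvrl1 (y axes, from 0) against marker scores on the log2 scale (x axes), with 1 point for each of 70 libraries colored by group. Tgfbr2 rises along the meningeal fibroblast score (rho = 0.79), the 3 highest choroid plexus scores are in 14-14-0, 14-0-0 and home cage and the next, 4.58, in 0-0-2, and sedentary replicate 6 lies alone at a dentate gyrus score of -4.41.

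The tested genes whose pattern over the 70 libraries was most like that of a receptor were named by Spearman rho. For Tgfbr2 they were Tgfbi, a matrix protein induced by TGF-beta (rho = 0.84), the sulfate transporter Slc13a4 (0.82) and Coch (0.81). For Acvrl1 they were the smooth muscle protein gene Smtn (0.82), the BMP target Id3 (0.81) and the endothelial nitric oxide synthase Nos3 (0.81). Bmpr1a was most like the cohesin subunit Stag2 (0.91), Zmpste24 (0.86) and Tnpo1 (0.83), and Tgfbr1 was most like Bmpr1a itself (0.76), Cnot6 (0.76) and Cnot6l (0.73), both of the latter encoding deadenylases. Bmpr2 was most like Pank3 (0.88), Gucy1a2 (0.86) and Vcpip1 (0.85).

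Acvr1c was most like Bag4 (0.78), Slc7a14 (0.78) and Btbd3 (0.77), and these rho were 0.77, 0.77 and 0.76 without sedentary replicate 6 and 14-7-0 replicate 4. Acvr2a was most like the transcription factor Rfx3 (0.79), AI504432 (0.79) and Ctdspl2 (0.76), Acvr1b like Fam160a2 (0.81), Serbp1 (0.80) and Hipk4 (0.80), and Acvr2b like Pcnxl3 (0.76), Radil (0.76) and Cdc42bpb (0.73). Acvr1 had the least close partners, Large (0.68), Eif4b (0.64) and Atp8a1 (0.64). As a background, the 95th percentile of rho over all tested genes was between 0.36 for Acvr1 and 0.60 for Acvrl1.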

How the data were processed

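The values are FPKM that the authors deposited, 1 column per library: 50 bp single reads were aligned with ELAND v2e and Bowtie, reads with over 2 mismatches or several locations were removed, and the Tuxedo protocol was run. The submitters' processing notes also name mm10 and Cuffnorm, and versions are not given in the sources used here. No column was left unused. Strand was not stated in the counting, so reads of overlapping antisense genes cannot be told apart. The 12994 genes averaging 1 FPKM or more in the 70 libraries were tested on log2(FPKM + 0.1) by two-sided limma-trend (limma 3.58.1, R 4.3.3) with the 20 libraries of a comparison and no covariates, called at an unadjusted p under 0.05, with Benjamini-Hochberg adjustment over 12994 genes. Fold changes on this scale understate those of low genes. Correlations used 100000 permutations (numpy 2.4.6). Both were tested on simulated data. Named genes are the 10 receptors, the marker genes, pathway genes called against sedentary (up to 4 per comparison by smallest p) and the 3 tested genes most like each receptor. Promoter windows are from RefSeq (GRCm38.p6), and protein sequences were not used here. Single relations are given for some of the 15 marker lists, and 2 lists are not reported here. The members and lists were chosen with earlier results of these data known. Each library is 1 individually housed mouse, litters are not given, and p-values measure the spread between these libraries. Alternatives were another pseudocount, filters, scalings, covariates, cohorts, models and left-out libraries.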

Additional observations from a re-analysis of the deposited data

Results flagged for a closer look

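Among 70 combinations of a receptor and a group, 3 had a library whose gap to its nearest neighbour was above the 95% critical value of Dixon's test for 10 samples, and chance alone gives about 3.5 of 70. Acvr1 in sedentary replicate 6 was 9.65 FPKM, against 15.6 FPKM for the next lowest library of that group. Acvr1b in 0-0-2 replicate 9 was 26.5 FPKM, against 34.2 FPKM for the next lowest. Acvr2a in 14-14-0 replicate 3 was 7.42 FPKM, against 9.40 FPKM for the next lowest.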

How the results depend on the processing

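Read totals were not used here, so no counting error stands beside the FPKM values. The pseudocount of 1, both other filters and quantile normalization left the count of receptors called against sedentary as it was in each group. The counts that moved by over 1.5 times were as follows. The share of all genes called under these alternatives is not given, so a change in the receptors and a change in all genes cannot be told apart. The joint fit of all 7 groups gave 2 in 14-7-0, 2 in 14-7-2, 2 in 14-14-0, 1 in 0-0-2 and 4 between exercise groups (8 in the comparisons as reported). Median ratio scaling gave 2 in 14-14-0. Cohort 1 alone gave 0 in 14-7-2, and cohort 2 alone gave 0 in home cage, 14-0-0 and 14-14-0. The choroid plexus covariate gave 1 in 14-0-0 and 0 in 14-14-0. Cyber-T on FPKM gave 1 in 14-0-0 and 4 between exercise groups, and an unadjusted p under 0.01 gave 1 and 3. Added after seeing the data, the meningeal fibroblast covariate gave 0 in home cage, 14-0-0 and 14-14-0 and 5 between exercise groups, and the dentate gyrus covariate gave 2 in home cage and 3 in 14-14-0. Without sedentary replicate 6 and 14-7-0 replicate 4 together, 1 was called in 14-7-0 and 5 between exercise groups.

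Leaving out each library in turn gave 1 to 3 calls in 14-0-0, 1 to 2 in 14-14-0, 0 to 1 in 14-7-0, 1 in 14-7-2, 1 in home cage, 0 in 0-0-2 and 5 to 11 between exercise groups. The lowest of these, 5, came without 14-7-0 replicate 3 or 4, the 1 call in 14-0-0 without its replicate 0, 7 or 9, the 1 call in 14-7-0 without sedentary replicate 1, and the 2 calls in 14-14-0 without sedentary replicate 0 or 3. Acvr1c against sedentary stayed called in all 20 such fits of 14-0-0 and of 14-7-2, with log2 fold changes of 0.40 to 0.60 and 0.41 to 0.60. Over 7 groups 4 receptors passed at an unadjusted p with the replicate block (11.3% of all genes), and between cohorts 1 did without sedentary replicate 6 (12.1% of all genes). The labels do not state that replicate numbers pair the samples, and the comparisons as reported treat the libraries as unpaired. Correlations of same-numbered deviations ran from -0.40 to 0.70, with at most 7 of 10 over 0.1 in a comparison. Their median ran from -0.006 in 14-7-2 against sedentary to 0.16 in 14-7-0 against sedentary. The same-numbered library was the closest one for 0 to 5 of 10 libraries of a comparison. Whether libraries of the same number share a step of handling was not tested. The replicate block gave 1 call in 0-0-2 and 9 between exercise groups. Among differences past the threshold in either fit, 2 changed sign in cohort 2 alone: Acvr2a in 14-0-0 against 14-14-0 was -0.22 and Tgfbr1 in 14-7-2 against 14-7-0 was 0.012. The cause of these changes was not tested. Of 45 pairs of receptors, 10 passed in cohort 1 alone, and of 150 marker relations 18 passed in cohort 1 and 13 in cohort 2, each with 35 libraries.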

Other observations

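Neighbouring receptor genes can be read against their distance. Acvr1c and Acvr1, 30748 bases apart on the same strand of chromosome 2, had r = 0.63 and rho = 0.53 (permutation p = 1e-05 for both). Their rho was 0.49 without the 2 libraries farthest from the median of Acvr1. Acvrl1 and Acvr1b, 28730 bases apart on the same strand of chromosome 15, had r = 0.25 and rho = 0.30 (permutation p = 0.0337 and 0.0135, adjusted p = 0.0582 and 0.0303), so that only rho passed, and in cohort 1 alone rho was 0.12. Acvr2b and Acvr1 went opposite ways (r = -0.43, rho = -0.27), with rho of -0.03 in cohort 1, -0.52 in cohort 2 and -0.24 without sedentary replicate 6.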
